A study of Saccharomyces cerevisiae with 7 samples.

Results

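The 10 genes described here serve 2 vitamins of Saccharomyces cerevisiae. SNZ1, SNO1, PDX3, BUD16 and TPN1 make, convert or take up vitamin B6, and VHT1, BIO2, BIO3, BIO4 and BIO5 take up or make biotin. They were chosen by gene symbol from the annotation of the array, among 5449 S. cerevisiae genes with a probeset, and each of the 10 has 1 probeset with an identifier that is not of the shared kind. The choice was made with earlier results of these arrays known, so the number of members that changed describes them and supports nothing further. RNA came from 7 separate cultures of a cir+ strain, NRRL Y-12632. Of these, 4 had grown for 24 h in media that simulate asbestos mine drainage and 3 in control media. Both media were YPD powder with added glucose and differed in the water: filtered leachate of tailings from the Vermont Asbestos Group mine for the former, water that the labels call distilled and the study's methods deionized for the latter. All cultures shared an inoculum grown in control media, and the arrays describe a single strain, a single composite sample of tailings and a single time point. The study lists leachate chemistry for preparations on 2 dates and does not state which of them went into the media of each culture. Every property that the study quantified in both finished media was higher in mine drainage media, pH among them, except total Kjeldahl nitrogen. Total magnesium differed by far the most in proportion, followed by chloride, sulfate and total iron. Vitamin contents are not listed, and culture density at harvest was not analysed here.

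Vitamin B6 works in the cell as pyridoxal phosphate, the cofactor of aminotransferases, of enzymes that split or join amino acids, and of the first enzyme of heme synthesis. Yeast makes it from sugar phosphates and glutamine with a complex of Snz and Sno proteins, converts other forms of the vitamin with a kinase and an oxidase, and imports pyridoxine through Tpn1. SNZ1 was named for its expression in stationary phase. Biotin is the carboxyl carrier of acetyl-CoA carboxylase and pyruvate carboxylase. Many S. cerevisiae strains lack the first steps of its synthesis and depend on Vht1, which imports biotin, or on Bio5, which imports a precursor that Bio3, Bio4 and Bio2 then turn into biotin. Bio2 is an iron-sulfur enzyme of mitochondria, and in iron-limited yeast VHT1 is known to rise while the biotin synthesis genes fall.

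Values are RMA log2 signals, in which a difference of 1 is a doubling of signal. They are compared between arrays for the same probeset, never between genes, since probes differ in brightness. Mine drainage minus control was tested with limma, which fits each probeset and moderates its variance by that of the others, and p-values were adjusted by the Benjamini-Hochberg method over all 5498 S. cerevisiae probesets. Of these, 5421 lay above 1.52, the 95th percentile of the Schizosaccharomyces pombe probesets, on at least 3 arrays, and all 10 members did on every array. At an adjusted p under 0.05, 31.6% of the probesets were called, 14.5% higher and 17.1% lower in mine drainage, and 38.2% had no overlap between the groups (17.7% higher, 20.5% lower). Array measures that do not come from these genes also differed. The rRNA probesets had means of 11.9 to 12.1 on mine drainage arrays and 11.4 to 11.7 on control arrays. The added bioC controls had 9.11 to 9.74 and 8.61 to 9.09. For the bioB and bioD controls the ranges of the groups overlapped. They also did for all 9 hybridization controls together, at 9.66 to 10.15 on mine drainage arrays and 9.37 to 9.72 on control arrays. The 3' minus 5' difference of the control transcripts was 0.357 to 0.705 on mine drainage arrays and 0.706 to 1.02 on control arrays, and with it as a covariate 50 probesets passed in place of 1737. The ranges of this measure do not overlap between the groups, so it cannot be fully told apart from the treatment. A call lost with this covariate does not show which of them the difference follows. Without control replicate 2 the number of probesets called was 688, without control replicate 3 it was 861, and without mine drainage replicate 3 or 4 it was 1134 or 1118. Arrays of the same group correlated at 0.983 to 0.994, and arrays of different groups at 0.962 to 0.983. The number of arrays limits the precision.

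SNZ1 and SNO1, the synthesis genes of vitamin B6, were higher in mine drainage, BUD16 was lower, and PDX3 and TPN1 did not pass the test. Among the biotin genes BIO2 was higher, VHT1 and BIO4 were lower, and BIO3 and BIO5 did not pass. In all, 6 of the 10 members were called, 3 in each direction, beside 31.6% of all probesets (14.5% higher, 17.1% lower). Groups did not overlap for 5 members, 2 higher and 3 lower, beside 38.2% of all probesets. The median difference over the 10 was -0.07, beside -0.03 over all 5498 probesets, since rises and falls offset each other. Leaving out an array gave 4 or 5 called members, beside 688 to 1812 of the 5498 probesets. The 3' minus 5' difference as a covariate gave 2 members, SNZ1 and VHT1, beside 50 of the 5498 probesets. Signals are relative to the RNA of the whole culture, so a change in RNA per cell and a change in the share of cells that express a gene cannot be told apart.

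**Figure D1:**
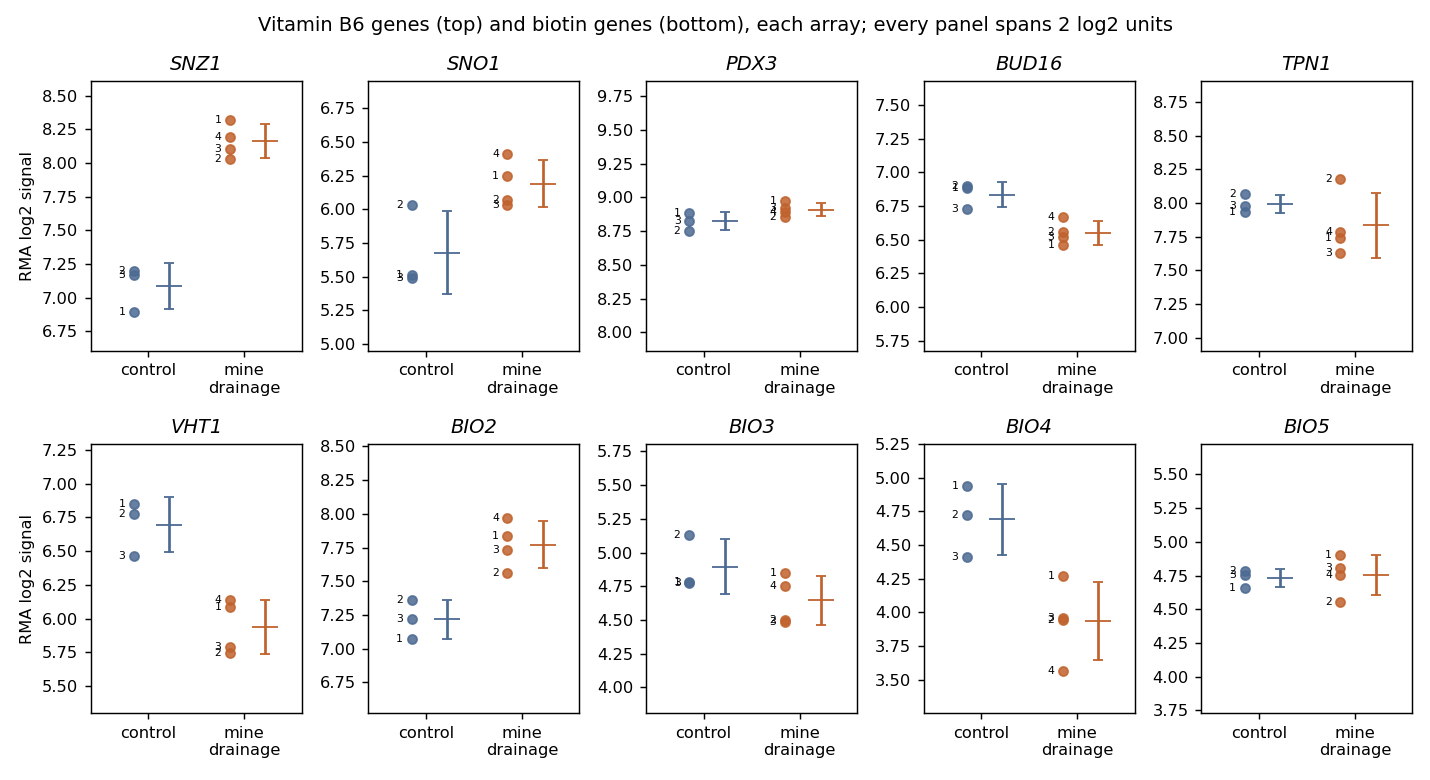
RMA log2 signal of each member on every array, with the 3 control arrays in blue and the 4 mine drainage arrays in orange. Points carry the replicate number, bars are the mean and SD of the group, and every panel spans 2 log2 units. The groups of SNZ1, BUD16, VHT1, BIO2 and BIO4 do not overlap, and those of PDX3, TPN1, BIO3 and BIO5 do.

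SNZ1 (YMR096W), the subunit of pyridoxal phosphate synthase that forms the vitamin's ring, changed most among the 10. Its log2 signal was 6.89, 7.20 and 7.17 in control replicates 1 to 3 and 8.32, 8.03, 8.10 and 8.19 in mine drainage replicates 1 to 4. The groups were separate, and the gap was several times the SD of either group (0.17 and 0.13). The rise was 1.07 on the log2 scale (standard error 0.11, 2.10-fold, adjusted p = 0.00141 from limma). It ranked 49 among the 5498 probesets by size of rise and 13 by p. Its adjusted p stayed under the threshold in each of the 15 alternatives tried, between 9.74e-05 and 0.0487, with a rise of 0.98 to 1.13.

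SNO1 (YMR095C) encodes the glutaminase that hands ammonia to Snz1 and is the neighbour of SNZ1, transcribed in the opposite direction. Control values were 5.51, 6.03 and 5.49, and mine drainage values were 6.25, 6.07, 6.03 and 6.41. Control replicate 2 had the same value as mine drainage replicate 3, and the other control arrays lay well below. SNO1 rose by 0.51 (standard error 0.15, 1.43-fold, adjusted p = 0.0315 from limma), about 0.56 less than SNZ1 on the log2 scale. The call was lost without control replicate 1 (0.43, adjusted p = 0.0895), control replicate 3 (0.42, adjusted p = 0.125), mine drainage replicate 1 (0.49, adjusted p = 0.0574) or mine drainage replicate 4 (0.44, adjusted p = 0.0834).

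BUD16 (YEL029C), a putative pyridoxal kinase of the salvage route, was slightly lower in mine drainage. The control arrays had 6.88, 6.90 and 6.73, and the mine drainage arrays 6.46, 6.55, 6.52 and 6.67. The groups did not overlap, but mine drainage replicate 4 and control replicate 3 lay close together. The difference was -0.28 (standard error 0.10, 1.22-fold lower, adjusted p = 0.0468 from limma), which ranked only 1343 by size of fall. The call was lost whichever array was left out (differences of -0.34 to -0.25, adjusted p = 0.0616 to 0.172), and also after a further quantile normalization (-0.20, adjusted p = 0.130).

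PDX3 (YBR035C), the oxidase that completes pyridoxal phosphate from the pyridoxine and pyridoxamine forms, had close values in the groups. They were 8.89, 8.75 and 8.83 in control and 8.97, 8.85, 8.92 and 8.89 in mine drainage. The difference was 0.09 (adjusted p = 0.475 from limma), with a 95% interval of -0.11 to 0.28 that leaves out a change of the size seen in SNZ1. TPN1 (YGL186C), the plasma membrane importer of pyridoxine, had 7.93, 8.07 and 7.98 in control and 7.74, 8.18, 7.63 and 7.79 in mine drainage. Mine drainage replicate 2 lay above all control arrays and the other mine drainage arrays below them, for a difference of -0.16 (95% interval -0.45 to 0.14, adjusted p = 0.384), which turned to 0.02 with the 3' minus 5' difference as a covariate.

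VHT1 (YGR065C), the high-affinity biotin importer of the plasma membrane, was lower in mine drainage. Its signal was 6.85, 6.78 and 6.46 on the control arrays and 6.08, 5.74, 5.79 and 6.14 on the mine drainage arrays. The groups were separate, with control replicate 3 nearest to the mine drainage arrays. VHT1 fell by 0.76 on the log2 scale (standard error 0.14, 1.69-fold, adjusted p = 0.00516 from limma) and ranked 165 among the 5498 by size of fall. The call held in each of the 15 alternatives (adjusted p = 0.000807 to 0.0445), and the fall was larger, at -1.14 (adjusted p = 0.0288), with the 3' minus 5' difference as a covariate.

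BIO2 (YGR286C), the biotin synthase that inserts sulfur in the last step, went the other way. It had 7.07, 7.36 and 7.22 in control and 7.83, 7.56, 7.73 and 7.97 in mine drainage. No mine drainage array fell into the control range, and the nearest values were control replicate 2 and mine drainage replicate 2. The rise was 0.55 (standard error 0.12, 1.47-fold, adjusted p = 0.00951 from limma). It kept its call without any array in turn (0.48 to 0.63, adjusted p = 0.00679 to 0.0384) but not with the 3' minus 5' difference as a covariate (0.44, adjusted p = 0.193). The array also holds probesets for bioB, bioC and bioD, biotin genes of Escherichia coli that are added to the samples as hybridization controls and do not come from the yeast. The bioB probesets averaged 7.24 ± 0.20 (SD, 3 arrays) in control and 7.94 ± 0.38 (SD, 4 arrays) in mine drainage, and their part in the BIO2 signal was not tested.

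BIO4 (YNR057C), BIO3 (YNR058W) and BIO5 (YNR056C) are adjacent genes, with BIO3 and BIO4 transcribed away from each other, and they did not move alike. BIO4, the dethiobiotin synthetase, had 4.94, 4.72 and 4.41 in control and 4.27, 3.95, 3.96 and 3.57 in mine drainage. The groups were separate but each was spread, with SDs of 0.27 and 0.29. BIO4 fell by 0.75 (standard error 0.17, 1.69-fold, adjusted p = 0.0119 from limma), and the call was lost without control replicate 2 (-0.74, adjusted p = 0.0531) and in the study's own test, run gene by gene with no shared variance (-0.75, adjusted p = 0.0729). BIO3, the aminotransferase of the preceding step, had 4.78, 5.13 and 4.77 in control and 4.85, 4.50, 4.48 and 4.75 in mine drainage. Its groups overlapped, and the difference of -0.25 (95% interval -0.55 to 0.05) did not pass (adjusted p = 0.171 from limma), though it did with array weights (-0.35, adjusted p = 0.0287). BIO5, the importer of biotin precursors, had 4.66, 4.79 and 4.76 in control and 4.90, 4.55, 4.81 and 4.76 in mine drainage. Its difference of 0.02 had a 95% interval of -0.22 to 0.26 (adjusted p = 0.889) and took both signs among the alternatives. The differences of the neighbours were therefore -0.75, -0.25 and 0.02, and whether they differ from each other was not tested.

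**Figure D2:**
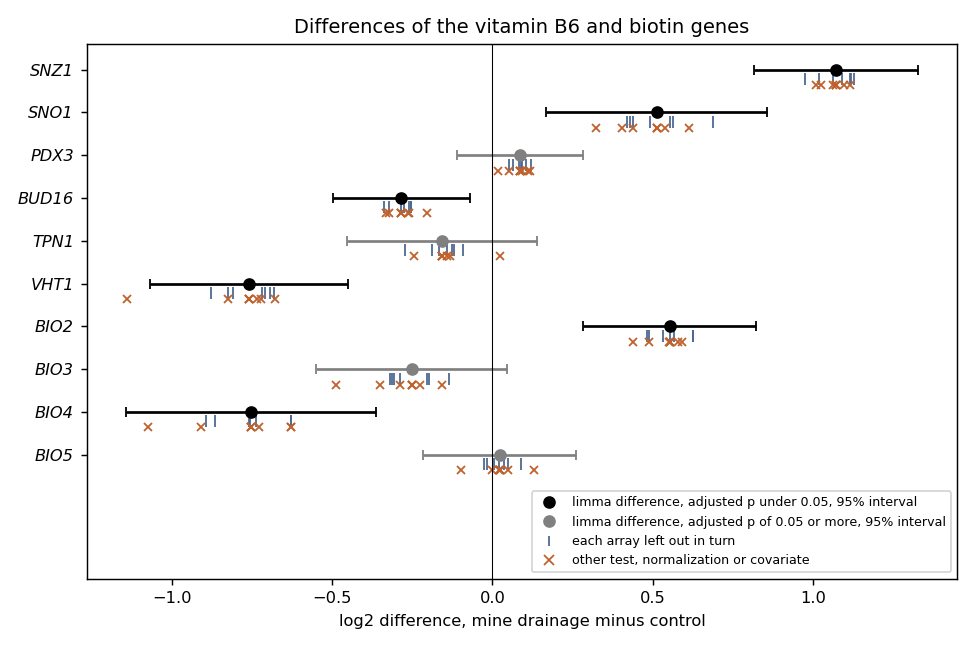
Log2 difference, mine drainage minus control, of each member with its 95% interval from limma (circles, black where the adjusted p is under 0.05). Blue ticks give the difference without each array in turn and orange crosses the other alternatives. SNZ1 lies at 1.07 and VHT1 at -0.76, with all their alternatives on the same side of 0, and only TPN1 and BIO5 have alternatives on both sides.

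The study's own test, gene by gene, was run again here over 5498 probesets, a different set from the study's. Its counts are therefore not those that the study printed. At the study's thresholds, an unadjusted p under 0.05 and a change of at least 1.5-fold, 3 members passed, SNZ1, VHT1 and BIO4. Of all probesets, 12.7% passed them. Adjusted by Benjamini-Hochberg, that test passed 13.3% of all probesets and 3 members, SNZ1 (adjusted p = 0.0292), VHT1 (adjusted p = 0.0445) and BIO2 (adjusted p = 0.0495).

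The array probed some further genes of vitamin B6 use. Of 7 listed, 5 had a probeset, and 2 of these rose and none fell (40% called, beside 31.6% of all probesets, 14.5% higher and 17.1% lower). BUD17, another putative pyridoxal kinase and the paralog of BUD16, had 7.62, 7.06 and 7.04 in control and 7.94, 7.65, 7.96 and 7.85 in mine drainage, a rise of 0.61 (adjusted p = 0.0163 from limma). Its direction was thus opposite to that of BUD16, although the call was lost without control replicate 2 (0.52, adjusted p = 0.0822) or 3 (0.51, adjusted p = 0.0723), in the study's own test (adjusted p = 0.0769) and with the 3' minus 5' difference as a covariate (0.27, adjusted p = 0.406). YPR127W, a putative pyridoxal reductase, rose by 0.61 as well (7.38 to 7.41 in control, 7.74 to 8.44 in mine drainage, adjusted p = 0.0201), with the call lost without control replicate 2 (0.60, adjusted p = 0.0751) or 3 (0.62, adjusted p = 0.0626), in the study's own test (adjusted p = 0.0886) and with that covariate (0.60, adjusted p = 0.200). YBL036C, of a conserved family of pyridoxal phosphate binding proteins, differed by 0.10 (adjusted p = 0.507).

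SNZ3 and SNO3, paralogs of SNZ1 and SNO1, were read by probesets of the shared kind, so their signal may come from near-identical copies such as SNZ2 and SNO2, which have no probeset of their own in the gene table. The SNZ3 probeset differed by 0.29 (3.89, 4.19 and 3.99 in control, 4.19 to 4.43 in mine drainage, adjusted p = 0.0689 from limma), and it passed after a further quantile normalization (0.44, adjusted p = 0.0139) and with array weights (0.24, adjusted p = 0.0455). The SNO3 probeset had 3.58, 3.84 and 4.14 in control and 3.54, 3.46, 2.73 and 3.44 in mine drainage, a difference of -0.56 (adjusted p = 0.0626) that passed without control replicate 1 (-0.70, adjusted p = 0.0450) and with array weights (-0.58, adjusted p = 0.0165). These paralogs therefore lay on opposite sides of 0, whereas SNZ1 and SNO1 both rose. The difference between the pairs was not tested.

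Enzymes that use pyridoxal phosphate were called in either direction at a share near that of all probesets, 38.5% beside 31.6%. More of them rose than fell: 13 of the 39 listed and measured passed as higher and 2 of the 39 as lower. Over all 5498 probesets, 795 passed as higher (14.5%) and 942 as lower (17.1%). The list median was 0.23 beside -0.03. The list was written with earlier values of CAR2, GCV2 and SHM2 known, and nothing particular to it is read from these counts. The largest rises were in CAR2, the ornithine aminotransferase, from between 6.82 and 7.77 to between 9.44 and 9.84 (2.32, adjusted p = 0.000695 from limma), and in GCV2, the glycine decarboxylase, from between 7.51 and 7.69 to between 8.96 and 9.24 (1.50, adjusted p = 0.000179). Next came GLY1, the threonine aldolase, which had 7.37, 7.06 and 7.14 in control and 8.12, 8.30, 8.25 and 7.97 in mine drainage (0.97, adjusted p = 0.00186), and SHM2, a serine hydroxymethyltransferase (0.80, adjusted p = 0.00177). STR2, a cystathionine gamma-synthase, fell from between 7.05 and 7.35 in control to between 6.15 and 6.67 in mine drainage (-0.88, adjusted p = 0.00365). The list's count was 8 without control replicate 2, 9 without control replicate 3 and 2, CAR2 and GCV2, with the 3' minus 5' difference as a covariate, under which STR2 differed by -0.53 (adjusted p = 0.102).

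Genes for the use of biotin and for its regulators, 8 of them measured, did not pass the test in limma, beside 31.6% of all probesets called. The lists are short, and nothing particular to them is read from this. BPL1, the ligase that attaches biotin to enzymes, differed by -0.01 (adjusted p = 0.982 from limma), or by 0.07 after a further quantile normalization. VHR1, a transcription factor known to control VHT1 and BIO5, differed by -0.24 (adjusted p = 0.123) and its paralog VHR2 by -0.14 (adjusted p = 0.559). VHR1 passed without mine drainage replicate 2 (-0.32, adjusted p = 0.0338) and with array weights (-0.30, adjusted p = 0.0141). Of 6 listed genes for proteins that carry biotin, 5 were measured, and DUR1,2 had no probeset in the gene table. Among the 5 measured, 0 passed in limma and 0 in the study's own test, and 1 had an unadjusted p under 0.05. That gene was HFA1, the mitochondrial acetyl-CoA carboxylase (8.66, 8.58 and 8.87 in control, 7.92 to 8.63 in mine drainage, difference -0.42, adjusted p = 0.0694), which passed without mine drainage replicate 2 (-0.54, adjusted p = 0.0204) and with array weights (-0.34, adjusted p = 0.0314). With the 3' minus 5' difference as a covariate it was -0.01 (adjusted p = 0.976). The cytosolic carboxylase gene ACC1 differed by 0.12, the pyruvate carboxylase genes PYC1 and PYC2 by -0.04 and 0.00, and ARC1, a tRNA-binding cofactor of aminoacyl-tRNA synthetases, by 0.11. All 4 turned sign in at least 1 alternative.

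Relatives of the importers are set beside the 31.6% of all probesets called, and nothing particular to these short lists is read from their counts. Of 6 measured members of the VHT1 transporter family, 1 passed (16.7%), SEO1, which fell by 0.70 (adjusted p = 0.0418 from limma). SEO1 was dim, at 2.69 to 3.23 in control and 1.66 to 2.56 in mine drainage. It lost its call without control replicate 2 (-0.54, adjusted p = 0.167) or control replicate 3 (-0.76, adjusted p = 0.0889). The same held without mine drainage replicate 1 (-0.64, adjusted p = 0.0842) or 3 (-0.52, adjusted p = 0.0860). Its call was also lost in the study's own test (adjusted p = 0.147) and after a further quantile normalization (-0.52, adjusted p = 0.0570). With the 3' minus 5' difference as a covariate SEO1 differed by -0.58 (adjusted p = 0.354). The pantothenate importer FEN2 (-0.02), the nicotinic acid importer TNA1 (-0.06), the allantoate permease DAL5 (-0.16), the putative carboxylate permease THI73 (-0.35) and the cysteine transporter YCT1 (0.20) did not pass, though THI73 (-0.43, adjusted p = 0.0271) and YCT1 (0.22, adjusted p = 0.0389) did with array weights. Among relatives of TPN1, FCY2, the purine and cytosine permease, differed by -0.18, FCY21 by -0.23 and FCY22 by -0.10, with adjusted p of 0.163 to 0.675. FCY21 passed with array weights (-0.29, adjusted p = 0.0210).

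**Figure D3:**
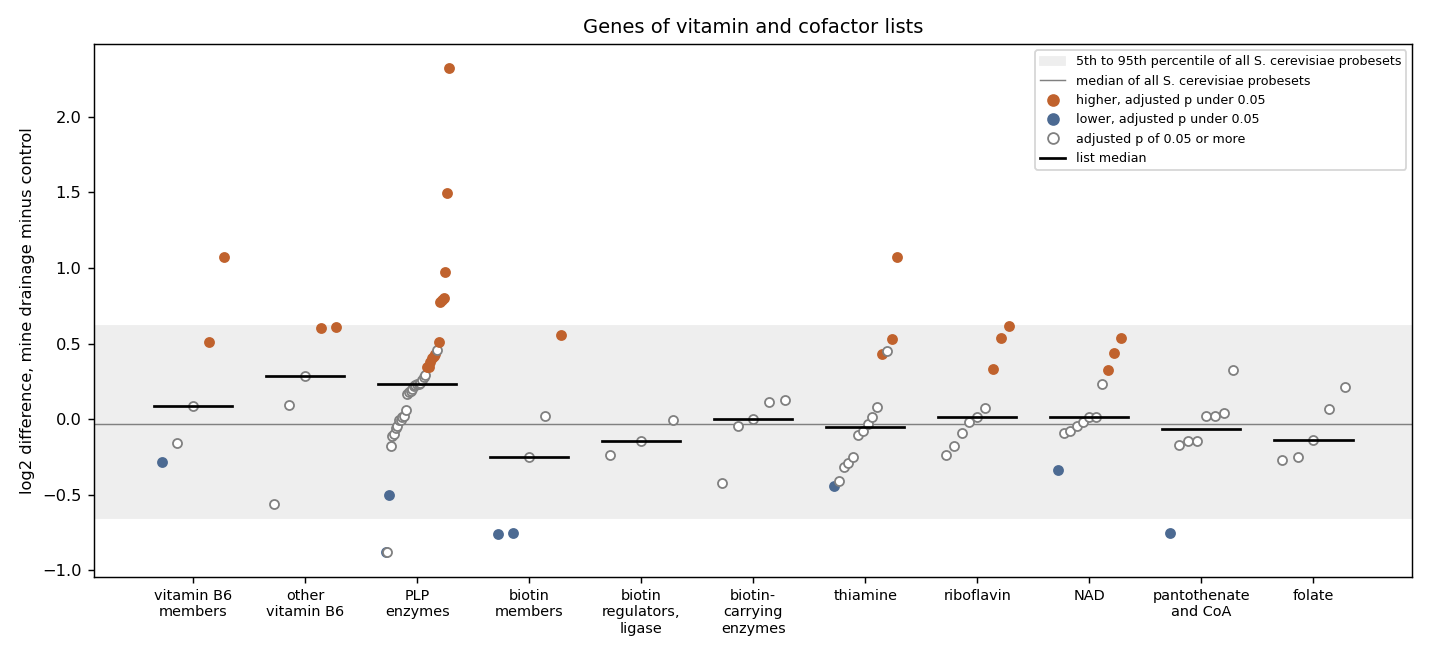
Log2 difference, mine drainage minus control, of the genes in each vitamin list, as a point per gene (orange higher and blue lower at an adjusted p under 0.05, open otherwise). Black lines are list medians, and the grey band and line are the 5th to 95th percentile and the median of all 5498 probesets. The pyridoxal phosphate enzymes have a median of 0.23, and the biotin members one of -0.25.

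The genes most like SNZ1 and VHT1 over the 7 arrays were found by Pearson correlation among probesets of the kind that is not shared. Closest to SNZ1 were VTC3 of polyphosphate synthesis (r = 0.986), NYV1 of vacuole fusion (r = 0.985) and WHI5, an inhibitor of cell cycle entry (r = 0.983), which rose by 0.40, 0.40 and 0.69. Closest to VHT1 were LRG1, a GTPase-activating protein of Rho1 (r = 0.988), ACF4 (r = 0.984) and TRM10, a tRNA methyltransferase (r = 0.983). They fell by 0.73, 0.44 and 0.29. These correlations are descriptive, since all points share the difference between the groups.

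Of 47 measured genes for thiamine, riboflavin, NAD, pantothenate and folate, 9 rose and 3 fell, 25.5% of the list, with a median of -0.02. This share is below the 31.6% of all probesets (14.5% higher, 17.1% lower). The number was 7 without control replicate 1, 3 without control replicate 2 or 3, 4 without mine drainage replicate 3 and 5 without mine drainage replicate 4.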

How the data were processed

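Signals of Affymetrix Yeast Genome 2.0 arrays were deposited on the log2 scale. The authors had background-corrected, quantile-normalized and summarized all 10928 probesets by Robust Multichip Average (RMA) at default settings in Partek Genomics Suite. Quantile normalization makes all arrays alike in distribution, so a change of most transcripts in the same direction would not be seen. Nothing was normalized again. Groups and replicate numbers came from the sample titles. Probesets were named through the platform annotation, matched by gene number to RefSeq genes of assembly R64, giving 5498 probesets, 128 of them with shared identifiers. For each gene the probeset of highest mean over all 7 arrays was used, leaving out shared identifiers where another existed, and no member had a second probeset. No coordinates or sequences are given, since the build behind the array values is not given in the sources used here and they hold no sequence.

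The test was limma 3.58.1 in R 4.3.3 with default settings, two-sided, without a filter, and it was tested on simulated data. The members and lists were chosen with earlier results of these data known. Named genes are the members, the small related lists in full, up to 4 rises and 4 falls of the pyridoxal phosphate and other vitamin lists with no overlap between groups, and the 3 genes most like SNZ1 and VHT1. Alternatives were the study's own test (an analysis of variance for each gene), array weights, a trended and robust variance prior, leaving out dim probesets, a second quantile normalization, a shift of each array to a common median, the replicate number as a block, the 3' minus 5' difference as a covariate and leaving out each array. Figures were drawn with matplotlib 3.10.9.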

Additional observations from a re-analysis of the deposited data

Results flagged for a closer look

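Of 50 named genes, 3 had a mine drainage array far from the other mine drainage arrays, judged by its gap to the nearest array over the range of the group. Chance alone flags about 1 in 20 such groups. The shared SNO3 probeset had 2.73 in mine drainage replicate 3, against 3.44 to 3.54 on the others. CAB3, a gene of coenzyme A synthesis, had 7.36 in mine drainage replicate 1, against 6.84 to 6.92, and this array lay closest to the control arrays (7.41 to 7.95). NYV1 had 7.98 in mine drainage replicate 1, against 7.81 to 7.83. None of the 10 members was flagged.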

How the results depend on the processing

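Over 15 alternatives SNZ1 and VHT1 kept direction and call, and PDX3 kept its direction and stayed uncalled. Probesets called numbered 730 in the study's own test as run again here, and 2835 with array weights. They numbered 929 with the replicate block, 50 with the 3' minus 5' covariate and 688 to 1812 without an array. Members called numbered 3, 3 and 2 with that test, block and covariate. Of the pyridoxal phosphate enzymes 8 were called with the block and 2 with the covariate, and 8 to 16 without an array. Of the other vitamin genes 4 were called with the study's test, 23 with array weights, 4 with the block and 0 with the covariate, where 50 of all probesets were called, and 3 to 15 without an array. Calls were lost at the same difference in the study's test for SNO1 (0.51), BUD16 (-0.28) and BIO4 (-0.75), and for BUD16 with a trend and robust prior (-0.28). BUD16 also missed after a further quantile normalization (-0.20) and a median shift (-0.26). With the replicate block SNO1 (0.44), BUD16 (-0.32) and BIO2 (0.49) missed the threshold, and BIO4 stood at -0.63 and past it. No control array has replicate number 4, so the block gives mine drainage replicate 4 a term of its own. The block's differences therefore equal those without that array and are not a separate check of them. With the covariate SNO1 (0.32), BUD16 (-0.33), BIO2 (0.44) and BIO4 (-1.08) missed it. With array weights BIO3 gained a call (-0.35), as did SNZ3, SNO3, VHR1, HFA1, THI73, YCT1 and FCY21 of the related lists. Without an array SNO1 ranged from 0.42 to 0.69, BUD16 from -0.34 to -0.25, BIO4 from -0.89 to -0.63 and BIO5 from -0.027 to 0.091. The cause of these changes was not tested. Leaving out an array leaves fewer samples, and the block sets mine drainage replicate 4 aside. The covariate does not overlap between the groups and cannot be fully told apart from the treatment.

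Reversals were of differences that did not pass in either setting. With the covariate TPN1 stood at 0.024, BIO5 at -0.10, BPL1 at 0.24, PYC1 at 0.25, ARC1 at -0.0054, DAL5 at 0.22 and TNA1 at 0.23. With array weights BIO5 stood at -0.0015 and BPL1 at 0.18. After a further quantile normalization BPL1 stood at 0.072, ACC1 at -0.015, PYC2 at -0.081, ARC1 at -0.019 and FEN2 at 0.062, and after a median shift BPL1 at 0.020 and FEN2 at 0.0081. Without an array, besides that of BIO5, the ranges that crossed 0 were BPL1 (-0.12 to 0.12), PYC1 (-0.18 to 0.037), PYC2 (-0.037 to 0.037), DAL5 (-0.31 to 0.0031), FEN2 (-0.073 to 0.060), TNA1 (-0.16 to 0.020) and FCY22 (-0.28 to 0.0048).

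Replicate numbers name separate cultures and do not pair them: deviations of same-numbered arrays from their group means correlated at -0.07, -0.18 and 0.08, and 1 of 3 control arrays correlated best with its own number. The number of arrays limits these results. Other probesets of the same gene could not be tried, since each member has a single probeset.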

Other observations

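Among the other vitamins, calls were spread over several pathways. PHO3, the acid phosphatase that releases thiamine from its phosphate, rose by 1.08 (5.36, 5.67 and 5.31 in control, 6.62, 6.30, 6.66 and 6.51 in mine drainage, adjusted p = 0.00177 from limma), a size close to that of SNZ1. MCH5, the riboflavin importer, rose by 0.61 (8.60, 8.44 and 8.69 in control, 9.05, 9.15, 9.38 and 9.18 in mine drainage, adjusted p = 0.00503). RIB3, of riboflavin synthesis, rose by 0.54 (adjusted p = 0.0445), but its control values of 7.91, 7.55 and 7.01 were widely spread, and without control replicate 3 the difference was 0.30 (adjusted p = 0.129). BNA2, the first enzyme of NAD synthesis from tryptophan, rose by 0.54 (adjusted p = 0.0468), and without control replicate 1 the difference was 0.36 (adjusted p = 0.144). CAB3 fell by 0.75 (adjusted p = 0.0103, and 0.0549 without control replicate 2). NPT1, of NAD salvage, fell by 0.33 (adjusted p = 0.0404) and PET18 by 0.44 (adjusted p = 0.0247), and both lost their call without control replicate 2 (adjusted p = 0.144 and 0.106). Leaving out other arrays also ended the calls of RIB3, BNA2, NPT1 and PET18. With the 3' minus 5' difference as a covariate no gene of these lists passed in limma, with RIB3 at 0.11 and PET18 at -0.25.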
